A study of Saccharomyces cerevisiae with 36 samples.

Results

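The mud1 deletion strain of budding yeast lacks Mud1, a protein of the U1 small nuclear ribonucleoprotein (snRNP). It was measured on 2 of the 36 arrays of the series, chosen by the labels that name mud1 as the mutant. The series surveyed 18 mutant strains, 2 arrays each, of which 17 were deletions and 1, prp4-1a, was a temperature-sensitive allele. Its title names mRNA processing factors that are not essential. Each 2-colour array set total RNA of 1 mutant against total RNA of its wild type, and the dye channels were exchanged between the 2 arrays of a strain. Mud1 array 1 carried the mutant in channel 2 and array 2 carried it in channel 1. The strains used here were the deletions mud1, nam8, mud2, mud13 and hsp104, and their wild type was BY4741, a standard haploid laboratory strain. These 5 strains were grown at 26 °C per the labels, and no further allele or agent was named for any of them. The fit also holds prp4-1a, which was moved with its own wild type to 37 °C for 2 h, and dbr1, labelled as mixed RNA of haploid and diploid cells, part of them sporulating. The labels do not say if the 2 arrays of a strain hold RNA of separate cultures. The p-values therefore reflect the spread between arrays alone, and that spread may be technical.

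The U1 snRNP begins splicing by pairing its RNA with the 5′ splice site of an intron, which commits the transcript to the splicing pathway. Mud1 is the yeast counterpart of the mammalian protein named U1-A and binds U1 RNA, and cells without it grow. Nam8 is another protein of the yeast U1 snRNP. Mud2 is the yeast relative of U2AF65 and acts at the branch point end of the intron, while Mud13 is the small subunit of the nuclear cap-binding complex. Hsp104 is a chaperone that takes protein aggregates apart.

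Most intron-containing genes on the array had 3 probes, which were read from their order as lying on the exon junction, in the intron and in an exon. A value is the log2 ratio of mutant to wild-type RNA at a probe. Subtracting a gene's exon probe from its intron probe gives the intron index, which tracks RNA that still holds the intron against the gene's total RNA. Subtracting it from the junction probe gives the junction index, which tracks spliced RNA in the same way. Unless stated otherwise, fitted values are limma estimates with standard errors from a fit over all 36 arrays, with n = 2 mud1 arrays. A change is an adjusted p under 0.05.

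The probes of MUD1 itself check the label. Its exon probe read −2.49 on array 1 and −2.63 on array 2. Its junction probe read −3.88 and −3.94, and its intron probe −1.79 and −1.82. All MUD1 probes were low on both arrays, which backs channel 2 over channel 1 as the likely direction of the deposited ratio, a direction that the labels do not give. MUD1 is left out of the gene groups below, since its index compares the remains of a deleted gene. The 2 mud1 arrays correlated at r = 0.77 over 687 probes once turned to mutant over wild type, at 0.87 over 212 intron indices and at 0.49 over 218 junction indices. Over the probes measured on both arrays of a pair, a mud1 array correlated with arrays of other strains in its own dye orientation at up to 0.63. With 2486 and 2529 usable spots bearing a gene symbol, both lay within the range of all arrays (2127 to 2792). Their spread at introns was 0.559 times that of the median strain, so the standard errors shared over all strains are likely too large for mud1.

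In mud1 the intron index rose at 53 of 212 introns (25.0%), MUD1 included, and fell at 3 (1.42%). Without MUD1, 52 introns of 51 genes rose, by a median of 0.65 on the log2 scale (1.57-fold) and a range of 0.35 to 1.70. The highest was the second intron of EFM5, a methyltransferase of a translation elongation factor, with an index of 1.60 on array 1 and 1.81 on array 2. SNC1, a v-SNARE of secretory vesicles, read 1.25 and 1.79. RUB1, the yeast counterpart of the ubiquitin-like protein Nedd8, read 1.40 and 1.56. These introns were high on both arrays, at a fitted 1.70 ± 0.17 for EFM5 intron 2 (adjusted p = 1.08e-07), 1.52 ± 0.19 for SNC1 (4.97e-06) and 1.48 ± 0.17 for RUB1 (4.69e-07).

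NYV1, the v-SNARE of the vacuole, had an intron index of 1.38 and 1.31. UBC13, a ubiquitin-conjugating enzyme of DNA damage tolerance, read 1.06 and 1.35. PMI40, the phosphomannose isomerase that feeds protein glycosylation, read 0.93 and 1.39. The fitted values of these were 1.34 ± 0.19, 1.20 ± 0.19 and 1.16 ± 0.18. IAI11 read 1.03 and 1.28, and UBC8, a ubiquitin-conjugating enzyme that acts on a gluconeogenic enzyme, read 0.99 and 1.25. SEC27, a subunit of the COPI vesicle coat, read 0.90 and 1.15, and PAL2 read 1.00 and 0.83. The fitted values of this second set lay between 0.92 and 1.15, and in none of the 10 did the arrays differ in sign. The 10 were picked as the highest, so that is partly built in. On the 2 hsp104 arrays these 10 introns, where measured, stayed between −0.50 and 0.28.

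**Figure D1:**
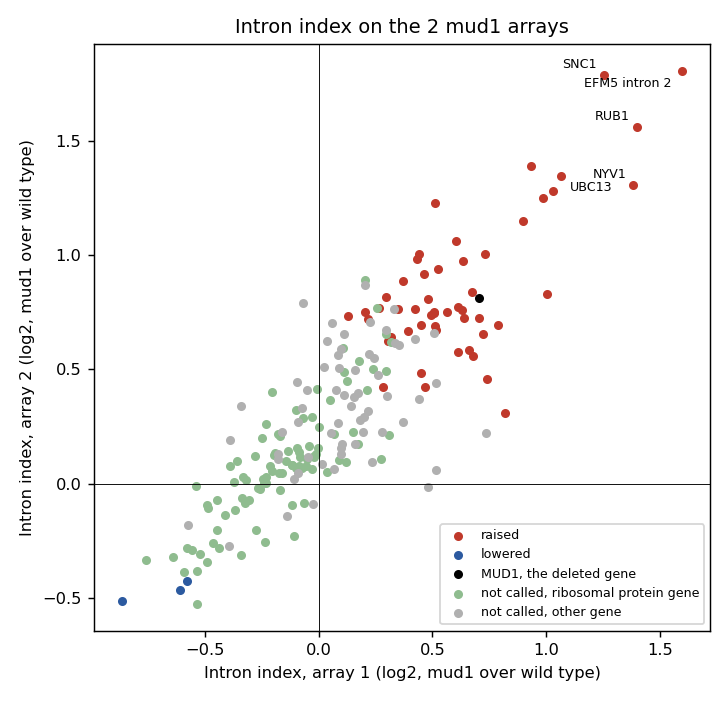
Intron index (log2, mud1 over wild type) on mud1 array 1 (horizontal axis) against array 2 (vertical axis), 1 point per intron, coloured by the limma call and by ribosomal protein genes. EFM5 intron 2, SNC1, RUB1 and NYV1 sit at the upper right, and the points correlate at 0.87.

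The count depended on both arrays: it was 12 without array 1 and 15 without array 2. Fitted without prp4-1a and dbr1, it was 76 raised and 10 lowered, and set against hsp104 in place of 0 it was 19 raised and 0 lowered. Without the dye term 26 rose.

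The index can rise because the intron probe is up or because the exon probe is down, and in mud1 both occurred. Taken alone, 27 of 212 intron probes rose (12.7%) and 1, MUD1, fell (0.472%). Of the 52 raised introns, 16 had an intron probe that rose, and 37 had one above 0 on both arrays. Among the other 159 introns, MUD1 left out, these counts were 11 and 91. An exon probe that fell was found at 14 of the 52, and 46 had one below 0 on both arrays, against 1 and 34 of the other 159. The 52 were picked by the index made of these 2 probes, so part of these differences is built in. Of the 52, both changes passed at 2 introns, those of NYV1 and UBC8, and neither passed at 24.

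EFM5 intron 2 rose through its intron probe, which read 1.52 and 1.68 against exon values of −0.08 and −0.12. SNC1, RUB1, UBC13 and IAI11 were of the same kind, with intron probes between 1.00 and 1.43 on every array. PMI40 differed from them: its intron probe read 0.17 and 0.63 and did not pass (adjusted p = 0.123), while its exon probe read −0.76 on both arrays and fell. The intron probe of PAL2 read −0.06 and 0.42, against exon values of −1.06 and −0.41. NYV1 stood between, with an intron probe of 0.88 and 0.86 and an exon probe of −0.50 and −0.44.

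**Figure D2:**
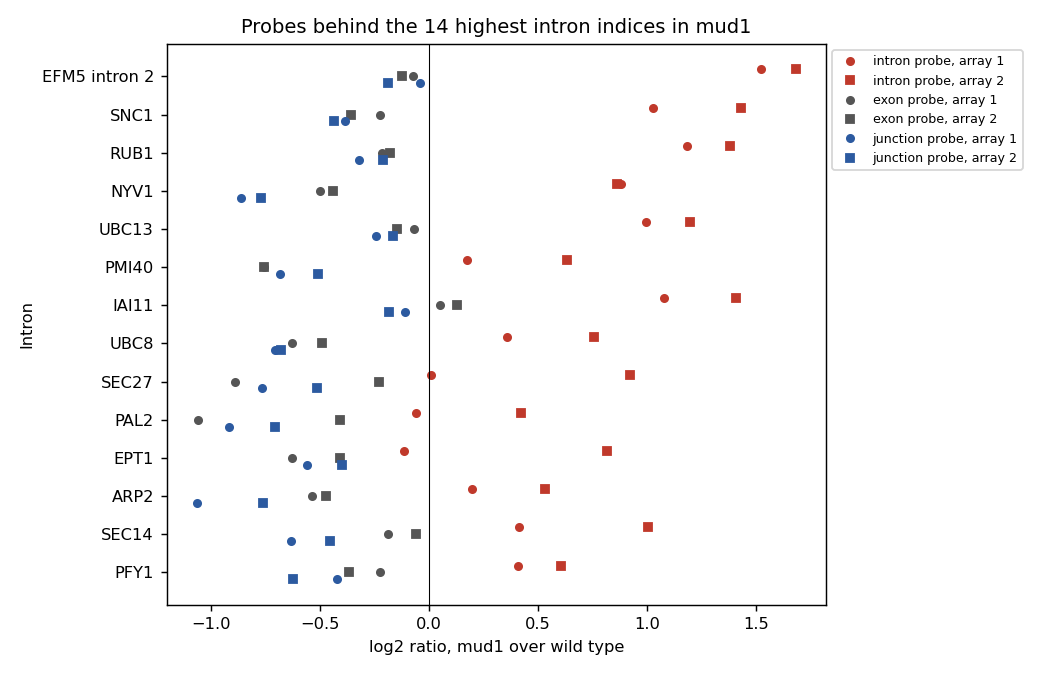
Intron, exon and junction probes (log2 ratio, mud1 over wild type) of the 14 highest intron indices among called introns, with circles for array 1 and squares for array 2. The intron probe of EFM5 intron 2 lies at 1.52 and 1.68, whereas in PMI40 the exon probe lies at −0.76 on both arrays.

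In 11 cases an intron probe rose while the index did not pass. Ribosomal protein genes supplied 97 of the 159 introns without a raised index. They also supplied 6 of these 11 cases: RPL35B, both introns of RPS22B, RPS23B, RPL17B and RPL36A. The others were both introns of TAD3, which encodes a subunit of a tRNA adenosine deaminase, the first intron of DYN2, a dynein light chain, and the introns of LSM2 and NCB2. The intron probe of RPL35B read 0.46 and 0.77 and that of LSM2, a U6-associated ring protein, 0.37 and 0.72. In both genes the exon probe was also above 0 on each array, at 0.16 and 0.28 for RPL35B and at 0.35 and 0.21 for LSM2.

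Exon probes follow all RNA of a gene. Of 225 exon values, 18 fell (8.0%), MUD1 included, and 0 rose by limma's adjusted p (0.0%), with 40 above 0 at an unadjusted p under 0.05. None of the 17 besides MUD1 was a ribosomal protein gene, and 14 of them also had a raised intron index. Over all, 52 of 211 introns rose, and 51 of 113 outside ribosomal protein genes. The index subtracts this same exon probe, so a lower exon value raises it and the overlap is partly built in. COX5B, an isoform of a cytochrome c oxidase subunit, read −0.77 and −0.85, a fitted −0.81 ± 0.14 (1.75-fold lower, adjusted p = 0.000208). PMI40 was 1.69-fold lower and PAL2 1.66-fold lower, though the arrays of PAL2 lay far apart. TUB1, which encodes alpha-tubulin, read −0.72 and −0.57. It shares much of its sequence with TUB3, the minor alpha-tubulin gene, which read −0.53 and −0.40, and how far their probes tell them apart was not tested.

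These counts depend on how the arrays are centred. With each array centred on its exon and intronless probes, 42 exon values rose and 31 fell, and with all probes as the centre 0 rose and 31 fell. The first of these centrings shifted the mean of the 2 mud1 arrays by only 2.9e-05. The median exon value stayed at 0.012, so the zero point of mud1 hardly moved there. The 5 genes without introns (HIS4, ADH1, GAL10, GAL1 and FAS1) had a median exon value of −0.03, and 0 of them changed by limma or passed at an unadjusted p under 0.05.

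Junction probes fell at 27 of 219 junctions (12.3%), MUD1 included, and 0 rose (0.0%), with 1 above 0 at an unadjusted p under 0.05. Of the 26 besides MUD1, 15 had a raised intron index and 9 a lowered exon value, against 52 of 211 introns and 17 of 224 exon values over all. The junction of COX5B read −0.98 and −1.15 and was the lowest. That of ARP2, a subunit of the actin-nucleating Arp2/3 complex, read −1.07 and −0.76. ACT1, the actin gene itself, read −0.91 and −0.86, and CIN2, which acts in tubulin folding, −0.85 and −0.88. These 4 junction probes were low on both arrays. The intron probe of ACT1 was not up, at −0.81 and −0.19, and its intron index of −0.38 ± 0.23 did not pass.

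Relative to exon probes, few junctions passed the test although most were below 0. The junction index fell at 5 of 218 (2.29%), MUD1 included, and rose at 0 (0.0%), with 0 above 0 at an unadjusted p under 0.05 as well. It was below 0 on both arrays at 164 of 217 junctions and above 0 on both at 9, with a median of −0.18 over all. RPL22A read −0.35 and −0.56, the first junction of RPL7B −0.47 and −0.42, and SEC14, a phosphatidylinositol transfer protein of the Golgi, −0.45 and −0.40. NHP6B, a high-mobility-group chromatin protein, had the lowest fitted value besides MUD1 (−0.80 ± 0.14), but it read −1.36 on array 1 and −0.24 on array 2 and lost its call without array 1. The number of lowered junctions was the most variable of these counts: it was 62 without prp4-1a and dbr1, and 48 from the 2 mud1 arrays alone.

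Ribosomal protein genes supply a large share of the transcripts that yeast splices. In mud1 their median intron index was −0.03 over 98 introns, against 0.47 over 113 introns of other genes. Of the 98, 1 rose and 3 fell, and of the 113, 51 rose and 0 fell, with 65 above 0 and 0 below 0 at an unadjusted p under 0.05. RPL16A was the 1 that rose, at 0.52 and 0.94. The 3 that fell were RPL42B (−0.86 and −0.51), RPL20B (−0.61 and −0.47) and RPS8B (−0.58 and −0.43), all low on both arrays. By subunit, of 55 large-subunit introns 1 rose and 2 fell, and of 43 small-subunit introns 0 rose by limma (2 at an unadjusted p under 0.05) and 1 fell.

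The probes show where this difference lay. The intron probes had close medians, 0.17 in ribosomal protein genes and 0.25 in other genes. Exon probes differed more, with medians of 0.22 in ribosomal protein genes and −0.17 in other genes. They were above 0 on both arrays in 75 of 97 ribosomal protein genes and below 0 on both in 79 of 127 other genes. Junction probes had medians of −0.01 and −0.32 in the same order. The junction index was the exception: it was lower in ribosomal protein genes (−0.23) than in other genes (−0.12), and below 0 on both arrays at 82 of 96 ribosomal protein junctions, with 0 above.

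Set beside the other strains as a description, the median intron index of ribosomal protein genes minus that of other genes was −0.49 in mud1, the lowest of the 18 strains, then −0.27 in nam8 and −0.24 in prp17. It was −0.08 in mud2, 0.42 in mud13 and −0.07 in hsp104. For exon probes the same difference was 0.38 in mud1, the highest of the 18, next to 0.33 in snu66, 0.30 in ecm2 and 0.28 in brr1. It was 0.23 in nam8, 0.12 in mud2, −0.22 in mud13 and 0.01 in hsp104. Many ribosomal protein genes exist as near-identical pairs, and how far their probes tell the copies apart was not tested.

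**Figure D3:**
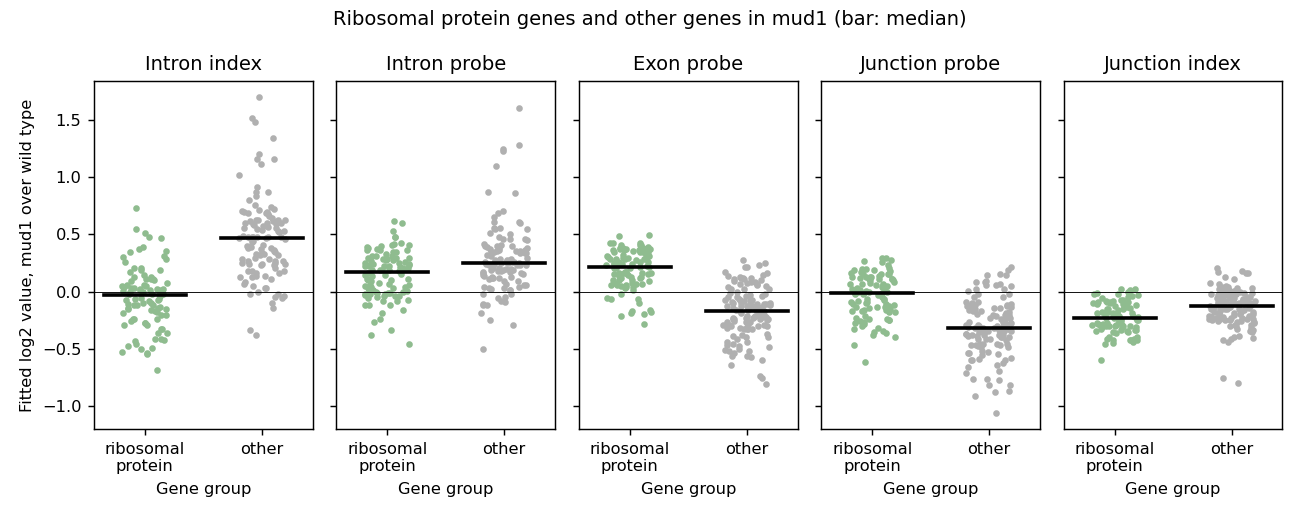
Fitted log2 values in mud1 (vertical axis) for ribosomal protein genes and other genes, 1 point per intron, junction or gene and a bar at the median, for the 2 indices and the 3 kinds of probe. The medians of the intron index are −0.03 and 0.47, those of the exon probe 0.22 and −0.17, and those of the intron probe 0.17 and 0.25.

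Among the other genes, several functional groups held introns that rose, to be read against 51 of 113 introns and a median of 0.47 over all genes that are not ribosomal protein genes (52 of 211 and 0.18 over all). Exon values fell in 17 of those 127 genes, with a median of −0.17, and in 17 of 224 over all. Of 20 secretion and vacuolar introns 9 rose, with a median of 0.46. Besides SNC1, NYV1 and SEC27, SEC14 read 0.60 and 1.06, and the set included SAR1, the GTPase of the COPII coat, and YOP1, which shapes the endoplasmic reticulum. Of 9 ubiquitin, SUMO, neddylation and proteasome introns 4 rose, those of RUB1, UBC13, UBC8 and UBC9, the SUMO-conjugating enzyme (0.63 and 0.76). The median of that group was 0.48, and its lowest index, −0.32, was that of the ribosomal protein gene RPL40A.

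Of 8 respiratory chain and mitochondrial introns 6 rose, with a median of 0.62. All 8 were above 0 on both arrays, as were 95 of 113 introns of all genes that are not ribosomal protein genes. COX4, a structural subunit of cytochrome c oxidase, read 0.43 and 0.98. ERV1, a sulfhydryl oxidase of the intermembrane space also counted under secretion above, read 0.72 and 0.65. RIM1, which binds mitochondrial single-stranded DNA, read 0.37 and 0.89. YML6, a protein of the mitochondrial ribosome, read 0.68 and 0.56. The exon values of this group had a median of −0.14 and 1 of 8 fell, COX5B.

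Of 12 introns of actin and tubulin cytoskeleton genes 6 rose, and the exon probe fell in 4 of 12 genes (TUB1, CIN2, ARP2 and TUB3), where the group's median was −0.27. ARP2 read 0.73 and 1.01, PFY1, the yeast profilin, 0.63 and 0.97, and TUB3 0.44 and 1.01. SAC6, the yeast fimbrin, read 0.82 and 0.31 and had a value close to the threshold (adjusted p = 0.0476).

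Of 9 introns of the list drawn up for mRNA processing and export 4 rose, none in a gene whose best known role is in either: PHO85, a cyclin-dependent kinase also counted under signalling, read 0.66 and 0.59, TAN1, which acts in tRNA acetylation, 0.43 and 0.77, and GCR1, an activator of glycolytic genes, 0.47 and 0.42. The fourth was the first intron of SRC1, at 0.32 and 0.64. Of 9 kinase, phosphatase and signalling introns 4 rose, with MRK1, a kinase of the GSK-3 family, at 0.74 and 0.46. CNB1, the regulatory subunit of calcineurin, read 0.22 and 0.72. MOB2, a kinase activator also counted under the cytoskeleton, read 0.28 and 0.42. Of 6 snoRNA host introns 1 rose, that of IMD4, an IMP dehydrogenase gene, at 0.45 and 0.48. Introns of the ribosomal protein genes RPS22B, RPL7A and RPL7B are in that list, and of all ribosomal protein introns 1 of 98 rose. The share among genes that are not ribosomal protein genes is thus not its baseline.

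No called intron was found by limma among 3 introns of splicing factor and Sm or Lsm genes, 2 of meiotic genes or the 1 measured Mer1-dependent intron, and 0 of these passed at an unadjusted p under 0.05. STO1, which encodes the large cap-binding subunit, read 0.51 and 0.44 at its intron. It did not pass by limma's adjusted p, but its unadjusted p was under 0.05.

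Genes read from probe order as having 2 introns allow a comparison within 1 transcript, since both introns share the exon probe. That reading was not tested against known gene structures. In EFM5 both introns rose, the first by 0.76 ± 0.18, with readings of 0.67 and 0.84. The second exceeded the first by 0.92 on array 1 and 0.97 on array 2. The same difference was 1.05 and 1.56 in nam8, 1.15 and 1.49 in mud2, −0.98 and −1.28 in mud13, and −0.15 and 0.08 in hsp104. The second intron thus read above the first in mud1, nam8 and mud2 and below it in mud13 on both arrays. Neither sign was particular to these strains: the mean difference was 1.00 in brr1, 0.78 in msl1 and 0.74 in snu66, and −1.86 in gcr3 and −0.25 in ecm2. In SRC1, an inner nuclear membrane protein gene, the first intron rose by 0.48 ± 0.18 and the second read 0.47 ± 0.18 (adjusted p = 0.0537), a difference of −0.09 and 0.06 between them.

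Mud1 and Nam8 sit in the same snRNP, and 5 of 211 intron indices differed between their deletions, 4 higher in mud1 (1.9%) and 1 lower (0.474%). SNC1 was 1.59 ± 0.27 higher in mud1 (adjusted p = 0.00143), at 1.25 and 1.79 in mud1 against −0.34 and 0.19 in nam8. IAI11 was 1.30 ± 0.32 higher, with −0.46 and 0.16 in nam8, and UBC13 was 1.25 ± 0.27 higher, with −0.34 and 0.25 in nam8. UBC8 was 0.86 ± 0.23 higher, with 0.04 and 0.47 in nam8. In these 4 introns every mud1 array lay above every nam8 array, which is partly built in, since they were picked by this difference.

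SAR1 went the other way, at 0.51 and 0.75 in mud1 against 1.35 and 2.03 in nam8, a difference of −1.06 ± 0.27 (adjusted p = 0.0317). SAR1 also read 1.34 and 1.99 in mud2 and 1.47 and 1.98 in mud13, so mud1 had the lowest values of the 4 strains. Without prp4-1a and dbr1, 28 introns differed between mud1 and nam8. Leaving out mud1 array 1 left 1 intron that differed, and leaving out array 2 left 0. Besides MUD1, 0 exon values (0.0% higher and 0.444% lower, MUD1 included) and 0 junction indices (0.0% and 0.461%) differed by limma's adjusted p, with 28 and 11 at an unadjusted p under 0.05, MUD1 included.

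**Figure D4:**
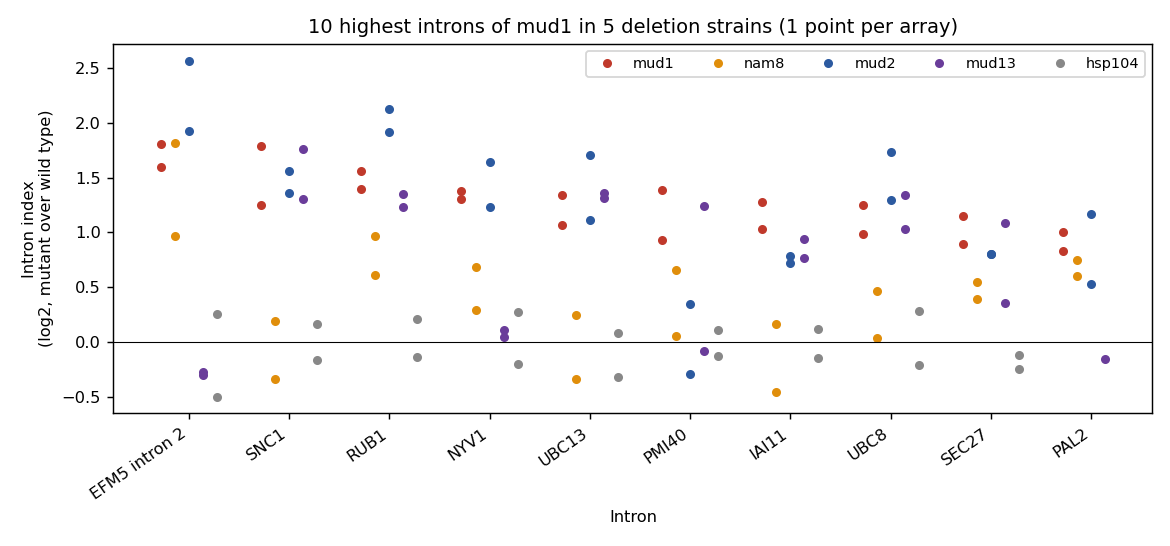
Intron index (log2, mutant over wild type) of the 10 highest introns of mud1, 1 point per array, in mud1, nam8, mud2, mud13 and hsp104. SNC1, UBC13 and IAI11 are above 1.00 on both mud1 arrays and below 0.30 on both nam8 arrays, and EFM5 intron 2 is below 0 on both mud13 arrays.

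Against mud2, 2 of 210 intron indices were higher in mud1 (0.952%) and 17 lower (8.1%), of which 9 were of ribosomal protein genes. Those genes supplied 98 of the 210 introns tested, a similar share. PMI40 was 1.13 ± 0.25 higher (0.93 and 1.39 in mud1 against −0.29 and 0.35 in mud2). TUB3 was 1.02 ± 0.26 higher (0.44 and 1.01 against −0.32 and −0.28). Both were above the mud2 values on every array, which is again partly built in by the choice. Lower in mud1 were RIM1 (0.37 and 0.89 against 1.88 and 2.47 in mud2), RPS19A (−0.64 and −0.32 against 0.69 and 1.14) and RPS30A (−0.36 and 0.10 against 0.84 and 1.53). RPL17A differed by −1.14 ± 0.27, lower in mud1. Leaving out either mud1 array left 1 intron that differed from mud2.

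In exon probes 2 of 225 values were higher in mud1 than in mud2 (0.889%) and 2 lower (0.889%), MUD1 included, or 1 higher and 3 lower with arrays centred on all probes, and 4 and 6 with exon and intronless probes as the centre. RPS22B read 0.14 and 0.11 in mud1 against −1.37 and −1.43 in mud2, a difference of 1.53 ± 0.19. COX5B read −0.77 and −0.85 in mud1 against 0.23 and −0.16 in mud2, a difference of −0.85 ± 0.19. VPS75, a histone chaperone, was 0.46 ± 0.12 higher, close to the threshold (adjusted p = 0.0494). At junctions the 1 index that differed of 218 was MUD1 (0.0% higher, 0.459% lower).

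Against mud13, 11 of 209 intron indices were higher in mud1 (5.26%), MUD1 included, and 47 lower (22.5%). Of the 47, 42 were of ribosomal protein genes, which supplied 98 of the 209 introns tested. The median difference was −0.71 in ribosomal protein introns and 0.06 in the others. RPS19A read −0.64 and −0.32 in mud1 against 2.12 and 1.35 in mud13, a difference of −2.22 ± 0.33. RPS27B (−1.99 ± 0.33), RPL29 (−1.90 ± 0.31) and RPS26B (−1.75 ± 0.29) followed. Higher in mud1 were EFM5 intron 2 by 1.99 ± 0.25, NYV1 by 1.27 ± 0.26 and COX5B by 1.01 ± 0.25. NYV1 read 1.38 and 1.31 in mud1 against 0.11 and 0.05 in mud13. SAC6 was 0.96 ± 0.29 higher, a call lost with arrays weighted by their spread.

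Of 224 exon values compared with mud13, 97 were of ribosomal protein genes. Values were higher in mud1 at 86 genes (38.4%), 72 of them ribosomal protein genes, and lower at 7 (3.12%), MUD1 included. This split moved with the zero point, to 42 higher and 41 lower with exon and intronless probes as the centre and to 39 and 13 with all probes. The arrays of mud13 lay further apart than most (3.24 times the median spread at exon probes and 2.22 times at introns), so errors here are too small, and with arrays weighted by spread 4 exon values differed. At the first junction of RPS22B the junction index read −0.34 and −0.23 in mud1 against −0.91 and −1.59 in mud13, the 1 of 216 that was higher in mud1 (0.463%), and MUD1 was the 1 that was lower (0.463%).

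**Figure D5:**
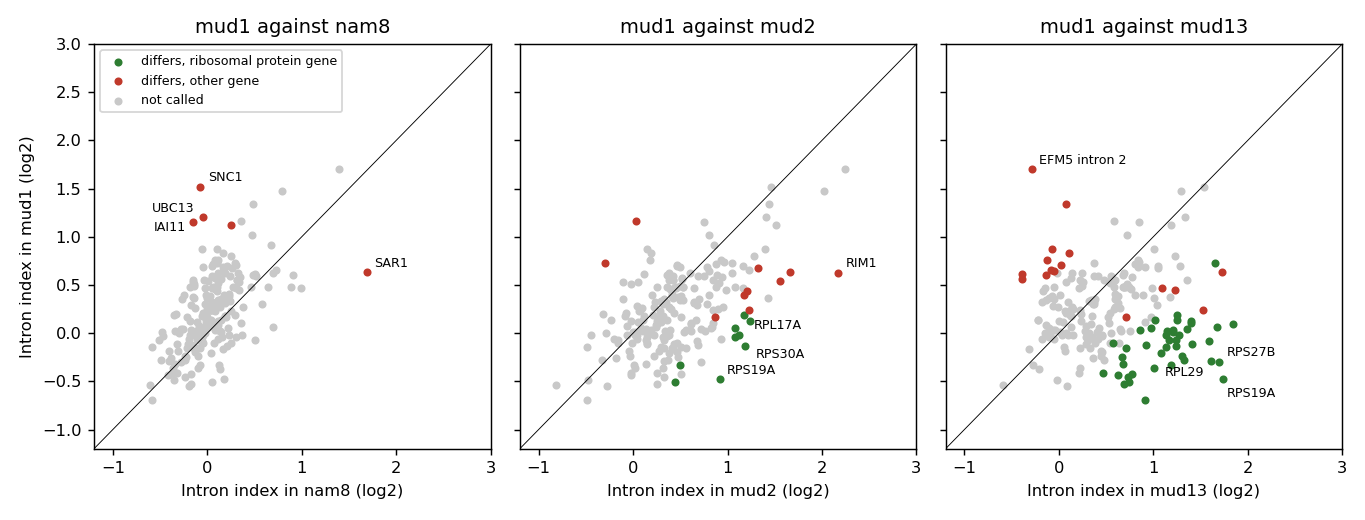
Fitted intron index (log2) in mud1 (vertical axes) against nam8, mud2 and mud13 (horizontal axes), 1 point per intron, with the line of equal values and colours for introns whose difference passed the limma test. SNC1, UBC13 and IAI11 lie above the line against nam8 and SAR1 below it, and 42 ribosomal protein introns lie below the line against mud13.

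Over all 18 strains mud1 was an intermediate case, with the thirteenth highest median intron index. At each of its 52 raised introns some other strain had a higher fitted index, most often prp4-1a, in 37 of 52. Among the strains that measured an intron, mud1 ranked between 4 (SAC6) and 13. PHO85, IAI11 and RAD14 ranked 5 of 16, 18 and 16 strains, and PAL2 5 of 7. Neighbours in these orders were not tested against each other beyond the strains named above.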

How the data were processed

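The 2 mud1 arrays were analysed within the series of 36. The authors deposited 1 log2 ratio between channels per spot. With image analysis not given in the sources used here, background treatment and scaling are unknown. The base, 2, is inferred. Of 1562 differences between recurring values, 247 lay within 3e-08 of log2(a/b) for whole numbers a and b up to 400, and no other base tried gave more than 8. Intensities were not used here, so which probes lay above background is unknown. Precision is limited by how few arrays there were, and standard errors rest on the spread over all strains.

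Each of 864 probes had 4 spots. Zeros (172 and 38 on the mud1 arrays) and blanks (561 and 652) were treated as missing, usable spots were averaged, and no scaling was added. Array annotation named 724 probes with 230 symbols. Probe roles are inferred from order, and 21 probes of uncertain role were kept out of both indices.

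Ratios were turned to mutant over wild type and fitted with limma 3.58.1 in R 4.3.3 (lmFit and eBayes), with a coefficient per strain and a common dye term. The Benjamini-Hochberg adjustment ran within strain and measure, over features measured on both mud1 arrays. Differences between strains were contrasts in that fit. The procedure was tested on simulated data.

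Genes were named by a rule: MUD1, the 10 highest and 3 lowest called intron indices, 5 lowest junction indices and exon values, up to 4 called members of each list, the 4 largest called differences in each direction from nam8, mud2 and mud13, and genes with 2 introns of which 1 was called. Other names were chosen after their values were seen. Members and lists were chosen with earlier results of these data known. Alternatives were other centring, no dye term, other spot and spread rules, fewer or weighted arrays, hsp104 as the zero point, a threshold of 0.01 and leaving out each mud1 array. Keeping values found on 1 mud1 array was added after seeing the data.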

Additional observations from a re-analysis of the deposited data

Results flagged for a closer look

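Effects of mud1 that differed from those of another deletion, by the limma contrast, are listed first as mud1 minus the other strain on the log2 scale. Against nam8, 5 introns differed: SNC1 (1.59), IAI11 (1.30), UBC13 (1.25), UBC8 (0.86) and SAR1 (−1.06). Against mud2, 19 introns differed. The named ones were PMI40 (1.13), TUB3 (1.02), RIM1 (−1.55), RPS19A (−1.40), RPS30A (−1.32) and RPL17A (−1.14). Against mud13, 58 introns differed, with EFM5 intron 2 at 1.99, NYV1 at 1.27, COX5B at 1.01 and SAC6 at 0.96. RPS19A stood at −2.22, RPS27B at −1.99, RPL29 at −1.90 and RPS26B at −1.75. The exon probes of RPS22B (1.53), VPS75 (0.46) and COX5B (−0.85) differed from mud2, 93 exon values differed from mud13, and so did the junction index of RPS22B intron 1 (0.97).

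Some probes outside both indices also differed from 0 in mud1 and lay beyond both hsp104 arrays. Of 19 probes whose role was uncertain, 8 passed the limma test and 6 of these lay beyond hsp104. At HMRA1, a mating-type gene with more than 1 intron, probes 2, 4 and 6 in array order read 0.52, 0.51 and 0.65. Whether these probes also pick up RNA of other mating-type sequences was not tested. At MTR2, an mRNA export factor gene, probes 3 and 4 read 0.45 and 0.46. The extra ACT1 probe that passed read −0.53, while the other extra ACT1 probes read −0.13, −0.05 and −0.12 and did not pass. Only 1 hsp104 array gave a value for the ACT1 probe that passed. Of 64 probes with no gene symbol, 7 passed and lay beyond hsp104, at 0.76, 0.81, 1.10, 1.23 and 1.19 for those that were higher and at −0.71 and −0.41 for those that were lower. Those 7 are unnamed in the annotation used here.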

How the results depend on the processing

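With 2 arrays a strain, counts of calls often moved. Of 950 comparisons of 65 named values with an alternative, 780 kept direction and call, 166 lost the call, 4 gained it and none turned. Of 197 counts, 105 stayed within 1.5 times the reported one. Without intensities, limits from dim probes are unknown. The causes of the changes below were not tested, beyond fewer arrays or features where a setting removes them. No paired analysis was possible because the numbers shared across strains mark the dye orientation, which the common dye term already takes up as a block.

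Leaving out 1 mud1 array gave 12 to 15 intron indices, 1 to 2 junction indices, 1 to 10 exon values, 8 to 9 intron probes and 2 to 9 junction probes. Against nam8 it gave 0 to 1 introns, 0 to 0 junctions and 1 to 1 exon values. Against mud2 it gave 1 to 1 introns, 0 to 0 junctions and 2 to 2 exon values, and against mud13 32 to 43, 0 to 0 and 43 to 57.

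Totals of both directions are given in the order of intron index, junction index, exon values, intron probes and junction probes in mud1. Without the dye term they were 26, 1, 11, 13 and 14, without prp4-1a and dbr1 86, 62, 70, 83 and 63, with arrays weighted by spread 141, 127, 139, 127 and 125, against hsp104 19, 1, 4, 8 and 5, and at a threshold of 0.01 33, 1, 8, 14 and 12. The 2 mud1 arrays alone gave 85 intron indices, 48 junction indices, 46 exon values and 60 junction probes. Features on all arrays gave 23 intron indices, 21 junction indices and 17 intron probes. Junction indices numbered 3 with a trend and robust spread, 2 with zeros kept and 20 with at least 2 spots. Centring on all probes gave 31 exon values and 45 junction probes, and centring on exon and intronless probes 73 exon values.

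For introns that differed, no dye term gave 1 against nam8 and 8 against mud2, and a fit without prp4-1a and dbr1 gave 28, 58 and, against mud13, 90. Weighted arrays gave 48 against nam8 and 107 against mud2. A threshold of 0.01 gave 1, 8 and 36 against nam8, mud2 and mud13, and features on all arrays 10 against mud2. Junctions numbered 18, 63 and 1 against nam8, mud2 and mud13 with weighted arrays, 0 against each with spots joined by their median, and 0 against nam8 and mud2 at 0.01. Exon values numbered 53, 92 and 4 with weighted arrays. Against mud2 they numbered 10 with exon and intronless centring, 2 without the dye term, 7 without prp4-1a and dbr1 and 2 at 0.01. Against mud13 they numbered 52 centred on all probes, 60 without the dye term and 55 at 0.01.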
